A study of Mus musculus with 10 samples.

Results

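Glycolysis is the cytosolic pathway that splits glucose into pyruvate and yields ATP without oxygen. The 10 genes described here encode its enzymes as skeletal muscle uses them, and they were chosen by symbol: *Hk1*, *Hk2*, *Gpi1*, *Pfkm*, *Aldoa*, *Gapdh*, *Pgam2*, *Eno3*, *Pkm* and *Ldha*. The deposited table lists 55359 genes, of which 11 carry one of these symbols because 2 loci are listed as *Aldoa*. After a filter on a mean FPKM of at least 0.5 over all libraries (FPKM are fragments scaled to transcript length and library size), 10 of the 11 were tested among 13548 genes, and the second *Aldoa* locus was not.

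C2C12 is an immortalised mouse myoblast line, one cloned line, whose cells leave the cell cycle and fuse into myotubes when serum is withdrawn. The cells were transfected with 100 nM of an siRNA against *Fndc1* (si-*Fndc1*, 5 libraries) or of a scrambled siRNA (si-Control, 5 libraries), differentiated in medium with 2% horse serum for 4 days according to the labels, and sequenced as mRNA. *Fndc1* encodes a secreted protein with fibronectin type III domains, and the comparison asks which transcripts differ when its mRNA is lowered during myogenic differentiation. The series text instead places the harvest 48 h after transfection, and the labels do not say whether these libraries came from separate cultures, so the p-values may measure only the technical spread between them.

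Total counts per library ran from 66771605 to 75995168 for si-Control and from 56332844 to 72839369 for si-*Fndc1*. *Fndc1* itself was at 27.8 ± 2.04 FPKM (SD, n = 5) in si-Control and 20.9 ± 1.70 (SD, n = 5) in si-*Fndc1*, a log2 fold change of -0.40 (SE 0.07, adjusted p = 0.000934 by edgeR's quasi-likelihood test), and its groups did not overlap. With the trend of counts with GC content and transcript length removed, it was smaller, -0.22 (edgeR adjusted p = 0.0104). Muscle markers such as *Ckm* and *Tnni2* were well detected, and 21 of 22 genes of a muscle list were tested. Of these, 5 rose and 4 fell at an edgeR adjusted p under 0.05 (42.9%, beside 34.4% of all tested genes). Transcripts of a 12-gene hepatocyte list summed to between 0.00282 and 5.42 FPKM in the si-Control libraries and between 50.6 and 177 FPKM in those of si-*Fndc1*. The mean of 11 of the 12 in si-Control was below 0.5 FPKM, so that they passed the filter through the si-*Fndc1* libraries alone, and none of the 12 was at 0 in all libraries. Adipocyte and endothelial lists had 0 genes above the filter, and the 1 leukocyte gene and 1 erythroid gene tested did not pass.

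In muscle, hexokinase traps glucose as glucose 6-phosphate, phosphofructokinase sets the committed step, and the lower part of the pathway from aldolase to pyruvate kinase recovers ATP. Lactate dehydrogenase then regenerates the NAD that the dehydrogenase step needs. Muscle fibres use their own isozymes at several steps, and as myoblasts differentiate, enolase and phosphoglycerate mutase are known to shift from the general forms (*Eno1*, *Pgam1*) to the muscle forms (*Eno3*, *Pgam2*).

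The members did not move one way. By edgeR's test 6 of 10 passed an adjusted p of 0.05, *Aldoa* and *Eno3* upwards and *Hk1*, *Hk2*, *Pkm* and *Ldha* downwards, whereas 34.4% of all tested genes were called, 17.3% higher and 17.2% lower. The median log2 fold change of the members was -0.13 beside 0.00 over all genes tested. In 2 of 10 members, *Hk2* and *Pkm*, the FPKM of the groups did not overlap, against 25.1% of all genes. By the exact permutation test of the FPKM 7 of 10 members were under a p of 0.05, beside 42.5% of all genes. With the replicate number as a block 3 of 10 passed by edgeR, beside 26.4% of all genes, and with the trend of counts with GC content and length removed 4 of 10 did, beside 22.7% of the 11185 genes with a GC content. Without that correction 6 of 10 passed and 37.9% of the same genes. As a share of all counts, the 10 genes together ranged from 0.534% to 0.560% over the controls and from 0.468% to 0.513% after knockdown, without overlap. This sum weighs *Pkm* most, which held 154759 to 168357 counts per control library and 99563 to 131227 after knockdown, more than any other member. The share without *Pkm* was not computed, and counts on copies of *Gapdh*, given below, are not in it. In bulk RNA, fewer cells of one kind and less RNA per cell cannot be told apart.

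Ordered by mean FPKM in si-Control, *Pkm* was the highest of the 10, followed by *Aldoa* and *Eno3*, *Ldha*, *Gpi1* and *Pfkm*, *Pgam2*, *Hk1* and *Hk2*, and *Gapdh*. The neighbours *Aldoa* and *Eno3*, *Gpi1* and *Pfkm*, and *Hk1* and *Hk2* overlapped in both groups, and *Hk2* and *Gapdh* overlapped in si-*Fndc1* only. The place of *Gapdh* at the foot of this order rests on how reads were shared among its copies, as given with that gene.

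**Figure D1:**
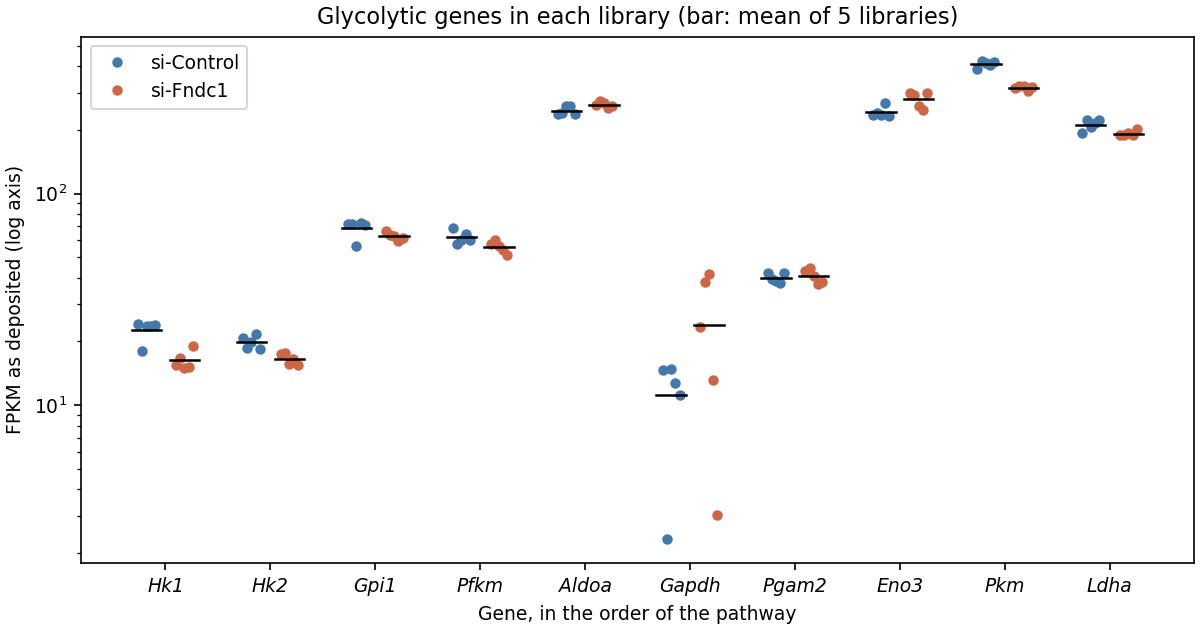
FPKM of each glycolytic gene on a log axis, with 5 si-Control libraries (blue) and 5 si-*Fndc1* libraries (orange) as points and the mean of each group as a bar. *Hk2* and *Pkm* separate fully, the groups of the other 8 overlap, and *Gapdh* ranges from 2.33 to 41.5 FPKM.

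At the first step, both hexokinases fell. *Hk1* (ENSMUSG00000037012, chr10:62104634-62215687, minus strand, in the coordinates of the authors' table, which names no build) encodes the hexokinase found in most tissues, bound to mitochondria. In si-Control 1 to 5 it was at 24.1, 17.9, 23.6, 23.8 and 23.8 FPKM. In si-*Fndc1* 1 to 5 it was at 15.5, 16.8, 14.9, 15.1 and 19.0 FPKM. Si-Control 2 lay well below the other control libraries and si-*Fndc1* 5 above it, so that the groups overlapped, while 4 of 5 si-*Fndc1* libraries lay below every control. The mean went from 22.7 ± 2.64 (SD, n = 5) to 16.3 ± 1.67 (SD, n = 5), a log2 fold change of -0.47 (SE 0.09, edgeR adjusted p = 0.00214). With the trend of counts with GC content and transcript length removed in every library, the difference was -0.23 (edgeR adjusted p = 0.0729) and no longer passed.

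*Hk2* (ENSMUSG00000000628, chr6:82702006-82751435, minus strand) encodes the insulin-responsive hexokinase typical of muscle. It was at 20.8, 18.6, 19.9, 21.6 and 18.3 FPKM in si-Control 1 to 5. The si-*Fndc1* libraries 1 to 5 were at 17.3, 17.7, 15.7, 16.5 and 15.5 FPKM. Every si-*Fndc1* library lay below every control library, and the log2 fold change was -0.25 (SE 0.06, edgeR adjusted p = 0.00472), with -0.18 (edgeR adjusted p = 0.0244) after the GC and length correction. The exact permutation test of the FPKM gave p = 0.00794 (two-sided), the smallest that 5 against 5 can give.

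*Gpi1*, the isomerase that turns glucose 6-phosphate into fructose 6-phosphate (ENSMUSG00000036427, chr7:33900755-33929761, minus strand), did not pass. It was at 68.8 ± 6.98 FPKM (SD, n = 5) in si-Control and 62.9 ± 2.46 (SD, n = 5) in si-*Fndc1*, a log2 fold change of -0.12 (SE 0.07, edgeR adjusted p = 0.184). A single library carried this outcome. Si-Control 3 was at 56.4 FPKM and the other 4 control libraries at 71.3 to 72.5, and without si-Control 3 the log2 fold change was -0.19 (edgeR adjusted p = 0.00297). After the GC and length correction the sign turned, to 0.06 (edgeR adjusted p = 0.599).

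*Pfkm*, the muscle subunit of phosphofructokinase (ENSMUSG00000033065, chr15:97990470-98030332, plus strand), was at 69.0, 57.9, 60.1, 64.4 and 60.2 FPKM in si-Control 1 to 5. After knockdown, si-*Fndc1* 1 to 5 stood at 58.0, 60.0, 56.7, 54.3 and 51.3 FPKM. The groups overlapped, with 3 si-*Fndc1* libraries below every control. The log2 fold change was -0.14 (SE 0.06, edgeR adjusted p = 0.0720), and -0.06 (edgeR adjusted p = 0.497) after the GC and length correction. Without that correction it passed when si-Control 2 was left out (adjusted p = 0.0421 by edgeR) or si-*Fndc1* 2 (adjusted p = 0.0448 by edgeR). With any other library left out it did not pass (edgeR adjusted p of 0.0819 to 0.153). The liver subunit *Pfkl* fell without overlap, with means of 25.6 ± 0.948 and 19.9 ± 1.19 FPKM (SD, n = 5 each) and a difference of -0.36 on the log2 scale (edgeR adjusted p = 0.000166). After the GC and length correction *Pfkl* was at -0.14 (edgeR adjusted p = 0.0294).

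*Aldoa* encodes the muscle aldolase, which splits fructose 1,6-bisphosphate into the triose phosphates (ENSMUSG00000030695, chr7:126394406-126399923, minus strand). In si-Control 1 to 5 it was at 238, 240, 259, 258 and 238 FPKM. In si-*Fndc1* 1 to 5 it was at 263, 273, 267, 255 and 258 FPKM. In 3 libraries it lay above every control, and in the rest within the control range. The log2 fold change of 0.10 (SE 0.04) stood at the threshold, with an edgeR adjusted p of 0.04996. It no longer passed when any one library other than si-Control 3 or si-Control 4 was left out, with edgeR adjusted p up to 0.112. After the GC and length correction it was 0.22 (edgeR adjusted p = 0.00142). The second locus listed as *Aldoa* (ENSMUSG00000114515, chr7:126399962-126408280, minus strand), next to the first, held 0 to 49 counts per library.

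*Gapdh*, the dehydrogenase of the triose step and a common reference gene for mRNA levels (ENSMUSG00000057666, chr6:125138678-125142736, minus strand), was the least even of the members. It was at 14.6, 2.33, 14.8, 12.7 and 11.1 FPKM in si-Control 1 to 5. The si-*Fndc1* libraries 1 to 5 were at 23.5, 38.4, 41.5, 13.2 and 3.01 FPKM. Si-Control 2 and si-*Fndc1* 5 held 766 and 780 counts, whereas si-*Fndc1* 3 held 13449. The coefficient of variation was 46.2% in si-Control and 68.4% in si-*Fndc1*, and the log2 fold change of 1.12 (SE 0.63) had an edgeR adjusted p of 0.196.

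The mouse genome carries many processed pseudogenes of *Gapdh*, intronless copies of its mRNA. Aligning the *Gapdh* transcript to the exons of all genes of an older annotation (GENCODE vM1, build NCBIM37) found 34 genes of the authors' table with at least 95% identity over at least 200 bases, and 10 more genes that are not used here. To show how close they are, a window of 100 bases in exon 4 of *Gapdh* (NCBIM37, chr6:125112950-125113049, minus strand) is printed 5′ to 3′ beside the same window in a pair of copies, with capitals at the bases where a copy shown differs from *Gapdh*. *Gm13394* is at chr2:28789700-28789799 (minus strand) and *Gm12070* at chr11:26686963-26687062 (plus strand) of the same build.
Gapdh: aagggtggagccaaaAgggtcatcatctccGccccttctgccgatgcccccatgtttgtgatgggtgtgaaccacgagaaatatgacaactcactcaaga
Gm13394: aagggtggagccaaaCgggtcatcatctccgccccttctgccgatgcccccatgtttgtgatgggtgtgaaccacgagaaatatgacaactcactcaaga
Gm12070: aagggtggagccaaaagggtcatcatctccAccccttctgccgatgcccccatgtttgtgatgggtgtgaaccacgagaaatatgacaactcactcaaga
Counted from 1 at the 5′ end of the window, the differences are A16C in *Gm13394* and G31A in *Gm12070*. The windows of *Gm2606*, *Gm12033* and *Gm14760* have 0 differences from that of *Gapdh*.

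Over all libraries *Gapdh* itself held 4.34% of the counts on *Gapdh* and the 34 copies, and its share ran from 0.599% in si-Control 2 to 9.14% in si-*Fndc1* 2. *Gm13394* held 44.4%, *Gm7336* 19.4%, *Gm2606* 12.7%, *Gm12070* 11.4% and *Gm12033* 5.78%. Summed over *Gapdh* and the copies, si-Control stood at 1498 ± 50.7 FPKM (SD, n = 5) and si-*Fndc1* at 1670 ± 85.8 (SD, n = 5), with coefficients of variation of 3.38% and 5.14%. Reads from stretches that are identical cannot be assigned to one locus, so the level of *Gapdh* alone is uncertain, and a sum over separate loci is not the level of one gene.

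With the counts of the 34 copies added to *Gapdh*, the log2 fold change was 0.21 (SE 0.04, edgeR adjusted p = 0.00427) and 7 of 10 members passed, again beside 34.4% of all genes. This call turned on *Gm7336*, which rose by itself (log2 fold change 0.51, edgeR adjusted p = 0.00102), and whose place and strand in NCBIM37 are not those of the authors' table. *Gm2606*, placed alike in both annotations, also rose by itself (log2 fold change 0.44, edgeR adjusted p = 0.0207). The other copy placed elsewhere, *Gm2308*, held 391 counts over all libraries. With only the 32 copies that both annotations place alike, the sum was 1275 ± 43.7 FPKM in si-Control against 1354 ± 90.5 in si-*Fndc1* (SD, n = 5 each; exact permutation p = 0.127, two-sided), and the log2 fold change of 0.13 (SE 0.05, edgeR adjusted p = 0.0745) did not pass. Of 14 copies tested singly, 5 were called, 2 higher and 3 lower, near the 34.4% of all genes. *Gm13394*, with the most counts, had a log2 fold change of 0.00 (edgeR adjusted p = 0.994).

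**Figure D2:**
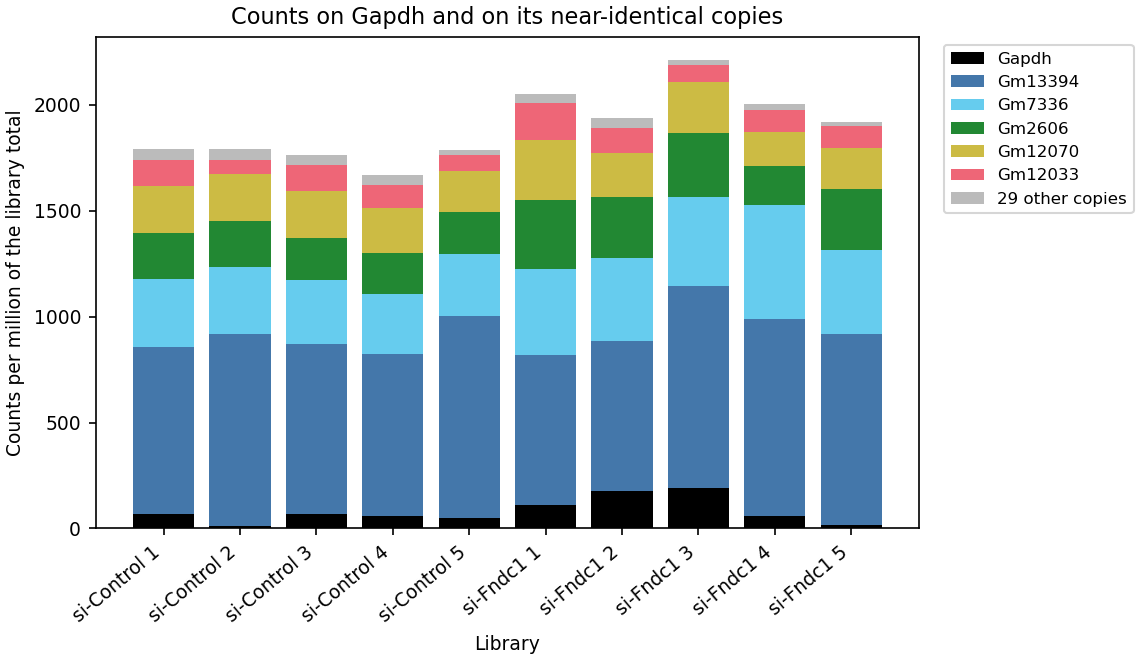
Stacked bars of the counts on *Gapdh* (black), on the 5 copies with the most counts and on the 29 other copies, in CPM, counts scaled to each library's total. *Gapdh* is a thin and uneven strip at the foot of every bar, and *Gm13394* with 44.4% of the counts is the largest part.

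*Pgam2*, the muscle phosphoglycerate mutase (ENSMUSG00000020475, chr11:5751640-5753733, minus strand), did not differ beyond the spread between libraries. It was at 42.0, 39.3, 38.5, 38.0 and 42.1 FPKM in si-Control 1 to 5. After knockdown, si-*Fndc1* 1 to 5 stood at 42.8, 44.6, 40.6, 37.5 and 38.1 FPKM. The groups overlapped, and the log2 fold change of 0.04 (SE 0.06, edgeR adjusted p = 0.691) turned to -0.03 (edgeR adjusted p = 0.807) after the GC and length correction.

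*Eno3* encodes the beta subunit of enolase, the muscle form (ENSMUSG00000060600, chr11:70548028-70553339, plus strand). In si-Control 1 to 5 it was at 235, 241, 234, 268 and 233 FPKM. In si-*Fndc1* 1 to 5 it was at 300, 292, 260.5, 248 and 300 FPKM. Si-Control 4 lay above the other controls and above 2 si-*Fndc1* libraries, so that the groups overlapped. *Eno3* rose by 0.22 on the log2 scale (SE 0.06, edgeR adjusted p = 0.0160). After the GC and length correction it was 0.17 (edgeR adjusted p = 0.116), and with limma on quantile-normalized log2(FPKM + 1) it was 0.08 (limma adjusted p = 0.446), neither of which passed.

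*Pkm*, the pyruvate kinase gene of muscle and of dividing cells (ENSMUSG00000032294, chr9:59563651-59586658, plus strand), showed the smallest p-value of the 10. It was at 388, 425, 413, 404 and 417 FPKM in si-Control 1 to 5. The si-*Fndc1* libraries 1 to 5 were at 314, 323, 323, 305 and 319 FPKM. The highest si-*Fndc1* library lay below the lowest control, and the mean went from 409 ± 14.1 to 317 ± 7.31 FPKM (SD, n = 5 each). The log2 fold change was -0.36 (SE 0.03, edgeR adjusted p = 2.93e-05), and -0.20 (edgeR adjusted p = 0.00103) after the GC and length correction. The gene makes the M1 and M2 enzymes by a choice between alternative exons, which counts per gene do not separate.

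*Ldha*, the lactate dehydrogenase subunit that favours lactate formation (ENSMUSG00000063229, chr7:46490899-46505051, plus strand), was at 193, 223, 206, 215 and 222 FPKM in si-Control 1 to 5. After knockdown, si-*Fndc1* 1 to 5 stood at 189, 189, 192, 188.5 and 202 FPKM. In 4 si-*Fndc1* libraries it lay below every control, and si-*Fndc1* 5 lay within the control range. *Ldha* fell by 0.13 on the log2 scale (SE 0.04, edgeR adjusted p = 0.0314) and by 0.14 after the GC and length correction (edgeR adjusted p = 0.0237). The call was lost, with edgeR adjusted p of 0.0561 to 0.0756, when si-Control 2, 4 or 5 or si-*Fndc1* 1, 2, 3 or 4 was left out.

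**Figure D3:**
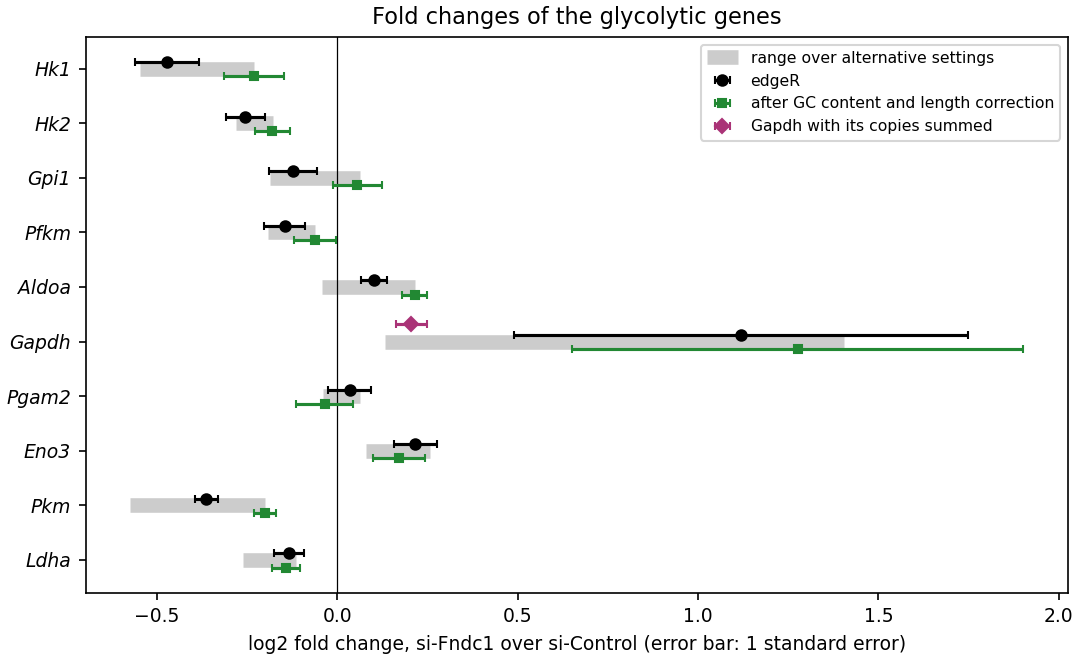
log2 fold change of each gene, si-*Fndc1* over si-Control, by edgeR (black, with 1 standard error), after the GC content and length correction (green) and, for *Gapdh*, with all 34 copies summed (purple); grey bars span the alternative settings. *Hk1*, *Hk2*, *Pfkm*, *Pkm* and *Ldha* stay below 0 and *Gapdh* and *Eno3* above it in every setting shown, while *Gpi1*, *Aldoa* and *Pgam2* cross 0.

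For each of 6 steps the FPKM of the muscle gene was set against the sum over the isozymes of that step, with 6 exact permutation tests (two-sided). Of the 6, 1 passed, and the other 5, given here, did not. *Hk2* made up 46.8% ± 2.73 and 50.5% ± 3.16 (SD, n = 5 each; exact p = 0.103), where si-*Fndc1* 5 at 45.0% stood apart from 51.2% to 52.8%. Without si-*Fndc1* 5 the exact p was 0.0159, and without si-Control 2 it was 0.0397. With any other library left out it was 0.103 to 0.167. *Pfkm* made up 65.7% ± 2.20 and 68.0% ± 0.931 (SD, n = 5 each; exact p = 0.0873), and without si-Control 1 the exact p was 0.0159. With any other library left out it was 0.0794 to 0.143. *Ldha* made up 98.4% in both groups (exact p = 0.603), and *Pgam2* 21.4% ± 1.46 and 22.1% ± 1.58 (SD, n = 5 each; exact p = 0.532).

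*Eno3* made up 47.4% ± 6.74 and 48.4% ± 2.04 of the enolase FPKM (SD, n = 5 each; exact p = 0.770). Si-Control 1 stood at 58.6%, since *Eno1b* was at 50.1 FPKM there and at 161 to 201 in the other control libraries. *Eno1*, *Eno1b* and the pseudogene *Gm4735* are at least 98.6% identical, so their counts are uncertain one by one. With *Gm4735* added to the step, *Eno3* made up 30.6% ± 2.98 and 35.9% ± 2.26 (SD, n = 5 each; exact p = 0.0317), still with overlap. Of the counts on *Eno1*, *Eno1b* and *Gm4735*, *Eno1* held 45.1% to 47.4% in si-Control 2 to 5 and 56.3% in si-Control 1. In si-*Fndc1* it held 53.9% to 55.4%. These loci differ in counts per FPKM, so the summed FPKM depends on where reads were placed. Adding the copy of *Pgam1* moved the *Pgam2* difference to 2.04 percentage points (exact p = 0.0159), with the same limit.

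**Figure D4:**
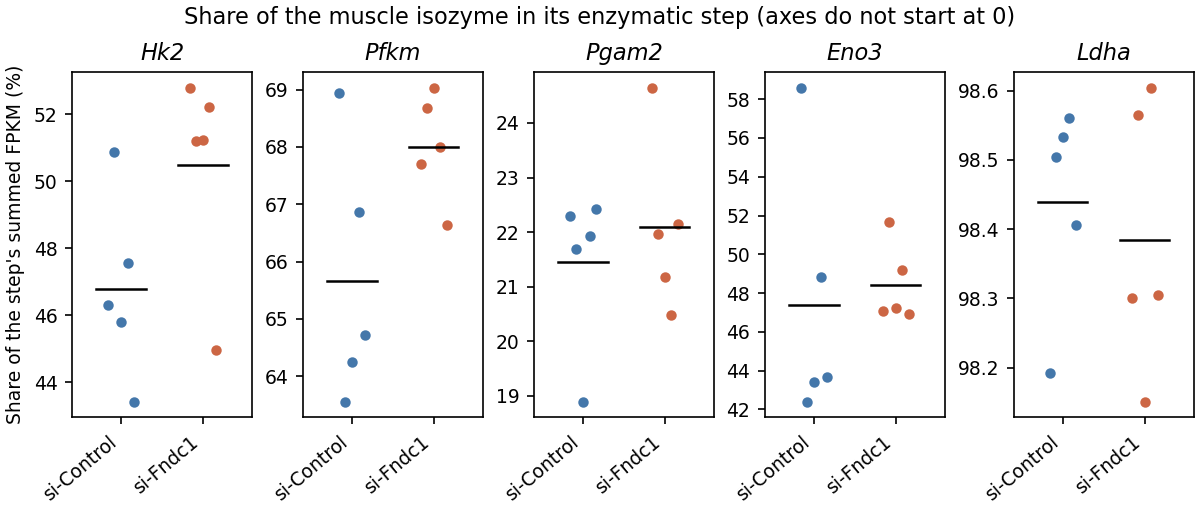
Share of the muscle gene in the summed FPKM of its step, in percent, for 5 steps, with 5 si-Control (blue) and 5 si-*Fndc1* (orange) libraries and their means as bars, on axes that do not start at 0. The groups overlap at every step shown, and si-Control 1 stands at 58.6% for *Eno3*.

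Of the other enzymes and isozymes of the pathway, 13 of 21 were tested, of which 3 rose and 2 fell (38.5%, beside 34.4% of all genes). Of the 3 that rose, 1 passed the filter only through the si-*Fndc1* libraries. *Eno1*, the general enolase, had a log2 fold change of 0.19 (edgeR adjusted p = 0.00192) from counts that are uncertain alone. After the GC and length correction *Eno1* was at 0.39 (edgeR adjusted p = 7.68e-05). Summed with *Eno1b* and *Gm4735*, it stood at 546 ± 66.8 FPKM against 493 ± 11.7 in si-*Fndc1* (SD, n = 5 each; exact permutation p = 0.111, two-sided). Si-Control 1 was at 432 FPKM, the other controls at 551 to 605 and si-*Fndc1* at 485 to 513. As said for the enolase step, this sum depends on where reads were placed. *Pgk1*, phosphoglycerate kinase, which makes the first ATP of the lower pathway, rose by 0.17 (edgeR adjusted p = 0.0156), with means of 251 ± 15.4 and 281 ± 9.22 FPKM (SD, n = 5 each), but was at 0.05 (edgeR adjusted p = 0.419) after the GC and length correction. *Eno2*, the neuronal enolase, fell by 0.17 (edgeR adjusted p = 0.0433), and was at -0.04 (edgeR adjusted p = 0.654) after that correction.

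Around the pathway, 0 of 7 tested regulators passed by edgeR, beside 34.4% of all genes. The 3 with the smallest p-values were *Pfkfb3* at -0.23 (log2, edgeR adjusted p = 0.0900), *Prkaa2* at 0.38 (0.0904) and *Tigar* at 0.05 (0.650). *Pfkfb3* makes fructose 2,6-bisphosphate, the activator of phosphofructokinase. Of 13 glycogen enzymes tested, 4 rose and 0 fell (30.8%, beside 34.4% of all genes), and the list median was -0.03. Among the 4 were *Ugp2*, which makes UDP-glucose (0.45, edgeR adjusted p = 6.08e-05), *Gyg*, the primer of glycogen (0.42, edgeR adjusted p = 0.00225), and *Gbe1*, the branching enzyme (0.27, edgeR adjusted p = 0.00386). After the GC and length correction 1 of 13 passed, beside 22.7% of all genes. This was *Gyg* (0.29, edgeR adjusted p = 0.0332), whereas *Ugp2* at 0.15 (edgeR adjusted p = 0.0736) and *Gbe1* at 0.11 (edgeR adjusted p = 0.206) did not pass.

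Of 23 genes for the use of pyruvate and NADH, 7 rose and 3 fell (43.5%, beside 34.4% of all genes). *Slc16a3*, the lactate exporter MCT4 (-0.25, edgeR adjusted p = 0.00142), and *Dlat*, a pyruvate dehydrogenase subunit (-0.18, edgeR adjusted p = 0.00348), fell, and *Pdk1*, the kinase that inhibits that complex, rose (0.17, edgeR adjusted p = 0.0173). After the GC and length correction 3 of the 23 rose and 3 fell, beside 22.7% of all genes. *Dlat* kept its call then (-0.24, edgeR adjusted p = 0.00123), whereas *Slc16a3* at -0.06 (edgeR adjusted p = 0.342) and *Pdk1* at 0.14 (edgeR adjusted p = 0.0803) did not pass. Of 9 gluconeogenic gene symbols listed, 7 were in the deposited table and 5 were tested. *Fbp1* and *Pck1*, both enzymes of liver gluconeogenesis, were at 0.00588 and 0.0359 FPKM in si-Control and at 1.01 and 1.15 FPKM in si-*Fndc1*, so both passed the filter only through the si-*Fndc1* libraries, and *Fbp1* is on the hepatocyte list. The part of other cells or their RNA in this difference was not tested. *Pcx*, pyruvate carboxylase, fell by 0.23 (log2, edgeR adjusted p = 0.00867), but was at -0.03 (edgeR adjusted p = 0.762) after the correction.

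Among 15 transcription factors known to act on glycolytic genes, 3 rose and 6 fell (60.0%, beside 34.4% of all genes), with a median of -0.12. *Hif1a*, the oxygen-regulated factor, rose by 0.29 on the log2 scale (edgeR adjusted p = 8.87e-05), with means of 28.6 ± 0.522 and 34.8 ± 1.32 FPKM (SD, n = 5 each). Its partner *Arnt* was among those that fell (-0.20, edgeR adjusted p = 0.00346), as was *Klf5* (-0.30, edgeR adjusted p = 0.00236), and *Mlx* rose (0.38, edgeR adjusted p = 0.00159). After the GC and length correction 3 rose and 4 fell, beside 22.7% of all genes. *Hif1a* was then at 0.11 (edgeR adjusted p = 0.0291), and *Klf5* at -0.04 (edgeR adjusted p = 0.663) no longer passed. Of 18 hypoxia-induced genes outside glycolysis, 5 rose and 0 fell (27.8%, beside 34.4% of all genes). *Bnip3l* (0.28), *Bnip3* (0.40) and *Ero1a* (0.34) had the smallest p-values. After the correction none of those 3 passed (0.07, 0.09 and 0.15, with edgeR adjusted p of 0.0922, 0.306 and 0.0888), while *Egln1* and *Higd1a* rose and *Fam162a* fell. These 2 rises and 1 fall among 18 genes stand beside 22.7% of all genes called after the correction.

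The promoters of the members were read from RefSeq (build GRCm38.p6), which matched 10 of 10 members with 18 promoters, as the 250 bases before each transcript start. The motif ACGTG, the core bound by HIF and, within CACGTG, by E-box factors of the Myc and Mlx families, was searched on both strands. It was found in 7 of 18 promoters, of *Aldoa*, *Hk2*, *Ldha*, *Pfkm* and *Pkm*, and in 16.6% of 32851 promoters of the same length. The full CACGTG, which overlaps it, was found in 2 of 18, of *Ldha* and *Pfkm*, against 6.02% of all, and the E-box CAGCTG in 3 of 18, of *Gpi1*, *Pgam2* and *Pkm*, against 13.0%. Several promoters of one gene share bases, and a match describes letters only. The promoters of *Hk2* (chr6:82774455-82774704, minus strand) and *Ldha* (chr7:46845554-46845803, plus strand), which fell, and of *Eno3* (chr11:70656926-70657175, plus strand), which rose, are printed 5′ to 3′ with ACGTG on either strand in capitals.
Hk2: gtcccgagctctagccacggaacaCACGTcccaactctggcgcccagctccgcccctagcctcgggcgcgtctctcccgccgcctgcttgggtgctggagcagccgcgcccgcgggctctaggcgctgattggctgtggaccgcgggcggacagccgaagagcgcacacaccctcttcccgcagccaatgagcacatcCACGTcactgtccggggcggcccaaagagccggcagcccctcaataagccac
Ldha: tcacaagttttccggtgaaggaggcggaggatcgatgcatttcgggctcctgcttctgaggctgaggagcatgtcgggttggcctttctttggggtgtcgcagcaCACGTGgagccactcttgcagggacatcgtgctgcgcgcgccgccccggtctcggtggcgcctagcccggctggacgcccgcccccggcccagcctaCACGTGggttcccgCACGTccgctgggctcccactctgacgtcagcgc
Eno3: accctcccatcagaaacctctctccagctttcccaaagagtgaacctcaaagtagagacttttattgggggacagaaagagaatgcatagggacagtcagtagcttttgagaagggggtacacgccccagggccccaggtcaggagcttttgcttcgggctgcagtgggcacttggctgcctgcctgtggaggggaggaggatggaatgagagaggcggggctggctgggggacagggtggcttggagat
*Hk2* held 2 matches and *Ldha* 5, counting both strands of each CACGTG, and *Eno3* held 0. The promoters of *Hk1*, which fell by edgeR, and the other *Ldha* promoter (chr7:46846832-46847081) also held 0. *Aldoa*, which rose at the threshold, held the motif, so that members with it went both ways, as did members without it.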

How the data were processed

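The authors deposited raw read counts per gene and, beside them, FPKM per transcript length and library size, listed by the authors as 0.0001 where no read was counted and set to 0 here. The paper's methods name TopHat and htseq-count with mm10, the series text STAR with mm9, and the submitters' processing notes GRCm39, cutadapt 1.9 and FastQC, and whether counting used the strand is not given in the sources used here. The methods also count fewer libraries than the table holds, without saying which, so all 10 were used, and 0 columns were left without a sample.

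Counts were tested with edgeR 4.0.16 (TMM, quasi-likelihood, Benjamini-Hochberg over 13548 genes) in R 4.3.3, with DESeq2 1.42.0 and limma 3.58.1 on log2(FPKM + 1) as alternatives. FPKM and isozyme shares were compared by two-sided exact permutation tests. GC content and length were modelled with splines of 5 degrees of freedom for the 11185 genes (82.6%) with a GC content from NCBIM37 transcripts, the 10 members included. Copies were sought with blastn 2.17.0, and those alternatives were added after the data were seen. Copies placed within 5000000 bases on the same strand and chromosome in both annotations counted as placed alike.

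Counts of 2 libraries of a group differed by more than counting error in 20 of 20 pairs (chi-square over its degrees of freedom 40.0 to 74.0). Named are the 10 members, *Fndc1*, the isozymes, and in each pathway list the 3 genes with the smallest p-values. *Arnt*, *Egln1*, *Higd1a*, *Fam162a*, the *Gapdh* copies and the genes of the marker lists were named after their values were seen. Members and lists were chosen with earlier results of these data known. The isozyme share of 1 step, the one that passed its test, is not reported here.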

Additional observations from a re-analysis of the deposited data

Results flagged for a closer look

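In 34 groups of 5 libraries (10 members, 6 shares and the summed *Gapdh* level, in each group), 6 held a library far from the other 4 by Dixon's criterion, which chance alone passes in about 1 of 20 groups. *Hk1* was at 17.9 FPKM in si-Control 2, against 23.6 to 24.1 in the other controls. *Gpi1* was at 56.4 FPKM in si-Control 3, against 71.3 to 72.5. *Eno3* was at 268 FPKM in si-Control 4, against 233 to 241. *Ldha* was at 202 FPKM in si-*Fndc1* 5, against 188.5 to 192. The share of *Hk2* in the hexokinase FPKM was 45.0% in si-*Fndc1* 5, against 51.2% to 52.8%. The share of *Pgam2* in the mutase FPKM was 18.9% in si-Control 3, against 21.7% to 22.4%. The reasons were not tested.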

How the results depend on the processing

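*Hk2*, *Pkm* and *Fndc1* kept their direction and their call in 21 of 21 alternatives. Replicate numbers are shared by the groups but did not pair the libraries (same-number correlations of deviations -0.0427 to 0.0548). With the replicate number as a block, 3 members passed instead of 6, beside 26.4% of all genes, and 0 of 6 isozyme shares, where 5 pairs cannot go below an exact p of 0.0625; *Aldoa*, *Eno3* and *Ldha* lost their calls. The GC and length correction called 2536 genes instead of 4663 (4244 among the same 11185 genes without it), and 1645 with the block, when 16 genes of the pathway lists passed. *Gpi1* turned to 0.056 under the correction (0.063 with the block), *Pgam2* to -0.034 (-0.038 with the block), to -0.023 with limma and to -0.000914 without si-*Fndc1* 2, and *Aldoa* to -0.042 with limma. The cause was not tested. Counts of isozyme shares that passed were 2 with the 2 leading isozymes only and 3 with copies added, instead of 1. Leaving out 1 library gave 4 to 7 members called, 4000 to 4627 genes, 29 to 34 genes of the pathway lists, 4 to 7 members by FPKM instead of 7, 1 to 2 shares and a log2 fold change of *Fndc1* of -0.45 to -0.36. In those fits *Pgam2* ran from -0.000914 to 0.064 (log2) and from -0.203 to 1.57 in FPKM difference, both lowest without si-*Fndc1* 2. In percentage points, the *Pgam2* share ran from -0.00182 (without si-*Fndc1* 1; -0.000487 without si-Control 3) to 1.04, the *Eno3* share from -0.205 (without si-Control 2) to 3.84, and the *Ldha* share from -0.116 to 0.00391 (without si-*Fndc1* 3). The smallest count of a member in any library was 766 for *Gapdh* and 1999 for *Pgam2*, the next of them.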
